A study of Mus musculus with 94 samples.

Results

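L1MC and L1MD are subfamilies of the L1M group, the old, mammalian-wide branch of the L1 retrotransposons, which are long interspersed elements (LINEs). The members described here were all elements of the L1 count table whose subfamily name begins with L1MC or L1MD, except L1MC4_dup2661, L1MC1_dup5016 and L1MC_dup5009, which were left out by name. This gave 28387 of the 430083 elements in the table, or 6.60%, with 19511 elements in 11 L1MC subfamilies and 8876 elements in 6 L1MD subfamilies. The rule reads names alone. Of the elements left out, L1MC4_dup2661 had 80058 counts in cortex and 71727 in hippocampus, more than any member that was kept.

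L1 elements copy themselves through an RNA intermediate that is reverse transcribed and inserted back into the genome, and young L1 subfamilies can still do so in the mouse. Copies of the L1MC and L1MD subfamilies were inserted long ago, and most are truncated, diverged from their source and no longer able to move. Many old copies lie in introns, in untranslated parts of transcripts or between genes, where they can be transcribed as a stretch of a longer RNA. In total RNA, counts on such an element therefore measure RNA that carries its sequence, whichever promoter made that RNA.

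The samples were cortex and hippocampus of male mice. The labels give an age of 3 to 4 months and the study's methods a treatment of 4 months, so the age at sampling is not clear from these sources. Trisomic (TS) Ts65Dn mice carry an extra small chromosome with parts of MMU16 and MMU17, which gives them a further copy of many genes orthologous to human chromosome 21, and serve as a model of Down syndrome. Their wild-type (WT) littermates came from the same breeding, in which B6EiC4Sn.BLiA-Ts(1716)65Dn/DnJ females were crossed to B6C3F1/OlaHsd hybrid males, so all groups share a mixed background. Non-treated mice (TS-nt and WT-nt) drank water, and treated mice (TS-t and WT-t) received lamivudine, a nucleoside inhibitor of reverse transcriptase, at 3 mg/kg in it. The 48 cortex libraries came from 9 non-treated and 17 treated WT mice and from 9 non-treated and 13 treated TS mice. The 46 hippocampus libraries came from 8, 17, 8 and 13 mice in the same order. All 46 mice of the hippocampus set also had a cortex library. Each library was treated as 1 mouse, as labelled, and p-values measure the spread between these libraries.

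L1 counts per library ran from 186545 to 1165192 in cortex (median 323416) and from 178454 to 403378 in hippocampus (median 259745). On the first principal component, 8 libraries of cortex were distant from the median by over 3 times the median absolute deviation: mice 1, 3, 4 and 47 (WT-t), 2 and 8 (TS-t), 23 (TS-nt) and 24 (WT-nt). L1MC and L1MD elements with at least 1 count numbered 198 to 2628 in these 8 libraries and 2643 to 11605 in the other 40, so the 2 sets did not overlap. No hippocampus library lay that far. The tissue labels were not checked against marker genes, since gene counts were not used here. In bulk tissue, fewer cells of a type and less RNA per cell cannot be told apart.

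The first question was how much of the L1 signal these elements hold. In cortex, L1MC and L1MD elements held between 3.55% and 8.27% of all L1 counts of a library, with a median of 7.64%. In hippocampus they held between 6.66% and 9.12%, with a median of 8.18%, so the ranges of the tissues overlapped. By group, the cortex medians were 7.64% in WT-nt and 7.50% in WT-t, with 7.82% for TS-nt and 7.29% for TS-t. The corresponding hippocampus medians were 8.18%, 8.19%, 8.12% and 7.73%. Without the 8 cortex libraries that stood apart, the cortex medians were 7.67% in WT-nt, 7.56% in WT-t, 7.77% in TS-nt and 7.64% in TS-t. The ranges of all 4 groups overlapped in each tissue, and the lowest cortex value, 3.55%, was that of mouse 24 (WT-nt), which stood apart on the first component.

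**Figure D1:**
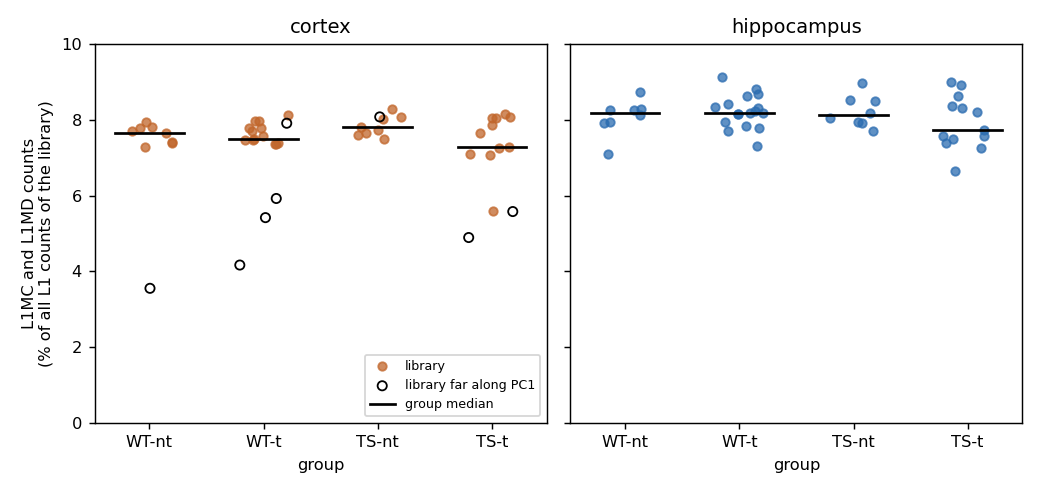
Share of all L1 counts of a library held by L1MC and L1MD elements (y axis, percent) in the 4 groups (x axis) of cortex and hippocampus. Each point is 1 library, open circles are the 8 cortex libraries far along the first principal component, and bars are group medians, which lie between 7.29% and 8.19%.

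Detection was broad and shallow. Only 508 of the members (1.79%) had no count in any of the 94 libraries, against 9.61% of all elements in the table. Counts were found in both tissues for 18764 members, in cortex alone for 6432 and in hippocampus alone for 2683. This split was not made over all elements of the table. Depth also differed, with 48 cortex libraries at a median of 323416 L1 counts and 46 hippocampus libraries at 259745. Cortex mouse 27 (TS-nt) alone held counts for 11605 members. The split is thus not a result about the tissues. A single library held counts for a median of 3734 members in cortex and 2837 in hippocampus. The median library had 6.29 counts per detected member in cortex and 6.99 in hippocampus, and 20.6% and 20.3% of the detected members rested on a single count. After the filter on low counts, 363 members could be tested in cortex and 324 in hippocampus, 280 of them in both tissues. Those few elements held 48.1% of the member counts in cortex and 57.2% in hippocampus. The other 27980 members were not tested as single elements in either tissue and enter the results only through the sums over their subfamily.

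Reads were spread unevenly over the 17 subfamilies, and the order was much alike in both tissues. L1MC1 held the largest share of L1 counts, with a median of 1.10% in cortex and 1.19% in hippocampus. It was followed by L1MC4 with 0.855% and 0.883%, L1MC5 with 0.720% and 0.841%, and L1MD with 0.692% and 0.759%. These 4 subfamilies together took 44.1% of all member counts in cortex and 45.2% in hippocampus. At the other end, L1MCb, L1MCc and L1MDb held medians of 0.0392% to 0.0462% in either tissue. Spearman's rho between the tissues, over the 17 median shares, was 0.985.

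The share followed the number of copies in the table. L1MC4, with 3218 elements, L1MC1 with 2916 and L1MD with 2849 were the most numerous, and L1MCc with 245, L1MDb with 251 and L1MCb with 274 the rarest. Across subfamilies, Spearman's rho between the number of elements and the summed counts was 0.929 in cortex and 0.907 in hippocampus, as a description over 17 points that share libraries. Counts per element still differed, from 26.1 in L1MCb to 57.6 in L1MC1 in cortex and from 17.8 to 49.0 for the same subfamilies in hippocampus. The count table gives no element lengths, so these are shares of reads and not levels per length.

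A few elements held a large part of some subfamilies. L1MC1_dup1842 alone carried 29.4% of the L1MC1 counts in cortex and 35.2% in hippocampus. L1MD1_dup44 carried 27.2% and 34.8% of L1MD1, L1MD3_dup770 carried 21.9% and 28.9% of L1MD3, and L1MCc_dup528 carried 23.4% and 31.4% of L1MCc. L1MC2 was the most even subfamily, its most abundant element holding 2.57% of the counts in cortex and 3.45% in hippocampus. In each of the 17 subfamilies the most abundant element held a larger part of the counts in hippocampus than in cortex.

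**Figure D2:**
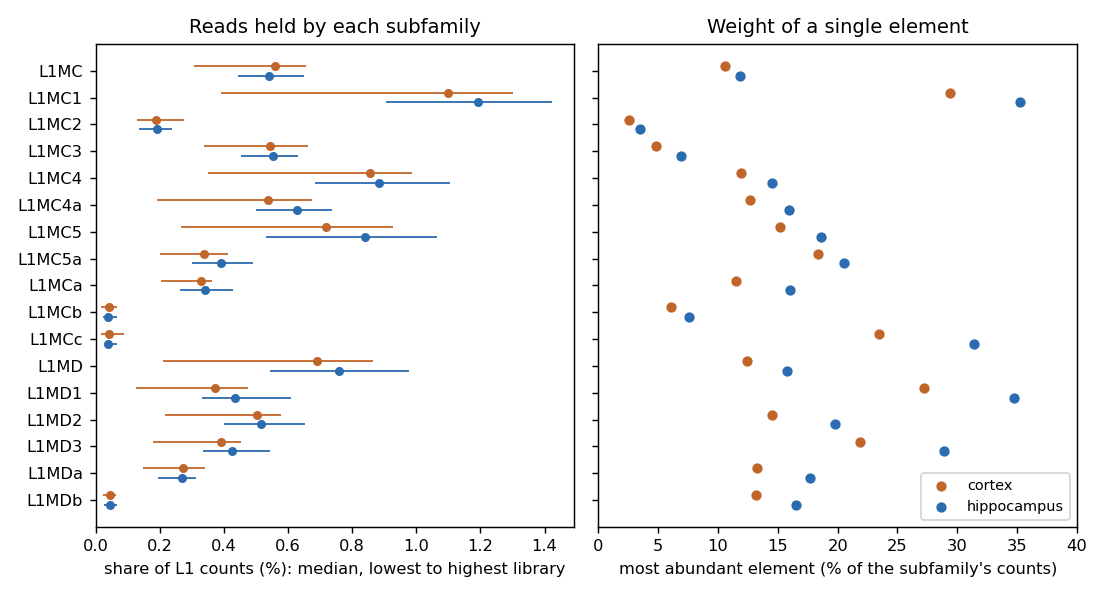
Left, share of L1 counts (percent) held by each of the 17 subfamilies in cortex (orange) and hippocampus (blue), with the median as a point and the lowest to highest library as a bar. Right, the part of each subfamily's counts (percent) that its most abundant element held, which ranged from 2.57% in L1MC2 to 35.2% in L1MC1.

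The next question was whether the subfamilies differ between the tissues. Summed over their elements, 11 of the 17 subfamilies passed the test and all 11 were higher in hippocampus, while none was higher in cortex. The differences were small, at most 1.21-fold. Over all 133 subfamilies of the table, 66.2% passed, 31.6% higher in cortex and 34.6% higher in hippocampus. The median log2 fold change, cortex minus hippocampus, was -0.11 over the 17 subfamilies and -0.01 over all of them. Other old groups leaned the same way. Of 16 L1MA and L1MB subfamilies, 9 were higher in hippocampus and 3 in cortex, with a median of -0.07. Of 27 L1ME subfamilies, 14 were higher in hippocampus and 7 in cortex, with a median of -0.10. Levels are given as CPM, the read count relative to all L1 counts of the library, after TMM scaling (trimmed mean of M-values), and the calls use adjusted p below 0.1 in edgeR's quasi-likelihood test.

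L1MD1, L1MC4a and L1MC5 differed most. L1MD1 ran from 1719 to 4756 CPM in cortex (median 3605) and from 3406 to 6334 CPM in hippocampus (median 4318). The ranges overlapped, and 41 of the 46 mice with both tissues were higher in hippocampus. The log2 fold change was -0.28 ± 0.05 (SE; adjusted p = 2.44e-07). L1MC4a had medians of 5270 CPM in cortex (2571 to 7424) and 6177 CPM in hippocampus (5013 to 7548). It was higher in hippocampus in 43 of 46 mice, with a log2 fold change of -0.27 ± 0.04 (adjusted p = 2.07e-09). L1MC5 was at 6926 CPM in cortex (4209 to 9299) and 8288 CPM in hippocampus (5166 to 11061). In 45 of 46 mice it was higher in hippocampus (log2 fold change -0.25 ± 0.04, adjusted p = 2.07e-07).

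The closely named L1MC5a followed with medians of 3384 CPM in cortex and 3880 CPM in hippocampus and a log2 fold change of -0.21 ± 0.03 (38 of 46 mice, adjusted p = 4.58e-10). L1MD had a log2 fold change of -0.19 ± 0.04, L1MC1 of -0.17 ± 0.04 and L1MD3 of -0.17 ± 0.03, with 39, 41 and 38 of 46 mice higher in hippocampus. The remaining called subfamilies were L1MD2, L1MCa, L1MC4 and L1MC3, with log2 fold changes from -0.11 to -0.06. The other 6 subfamilies did not pass the test. Their 95% intervals were -0.01 to 0.08 for L1MC, -0.01 to 0.14 for L1MC2, -0.03 to 0.24 for L1MCb, -0.16 to 0.18 for L1MCc, -0.08 to 0.04 for L1MDa and -0.07 to 0.17 for L1MDb. The 3 rarest subfamilies, L1MCb, L1MCc and L1MDb, had the widest intervals.

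The direction depended on which elements and which scaling entered. Without the most abundant element of each subfamily, 6 subfamilies were higher in hippocampus (L1MC1, L1MC4a, L1MC5, L1MC5a, L1MD and L1MD1) and 3 higher in cortex, beside 41 and 47 of all subfamilies. When only members that failed the filter on low counts were summed, 13 subfamilies were higher in cortex and none in hippocampus, beside 46 and 39 of all subfamilies. Both alternatives took elements out of the 17 subfamilies only, while the other subfamilies of the table were summed whole. The counts over all subfamilies are therefore not a like comparison. With the scaling factors of the element table, 5 subfamilies were higher in cortex and 3 in hippocampus (L1MC4a, L1MC5 and L1MD1), and over all subfamilies the split went from 42 against 46 to 68 against 18. That scaling moved the median of all subfamilies by 0.14. Relative to the median of all subfamilies, the median of the 17 lay at -0.10 with either scaling. With the mouse as a block, the same 11 were higher in hippocampus, beside 46 of all subfamilies. L1MC (log2 fold change 0.04, adjusted p = 0.0640) and L1MC2 (0.08, adjusted p = 0.0364) were then called higher in cortex, beside 47 of all. Without the 8 cortex libraries that stood apart, 10 were higher in hippocampus and 2 in cortex, beside 45 and 46 of all.

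Shares of L1 counts, which need no scaling factor, were then compared for the members that passed the filter in the fit of both tissues and for those that did not. The tested members held a median of 4.05% of L1 counts in cortex (0.726% to 5.40%) and 4.84% in hippocampus (3.17% to 6.73%), and 43 of 46 mice were higher in hippocampus. The untested members held 3.52% in cortex (1.93% to 5.52%) and 3.16% in hippocampus (2.18% to 4.23%), and 31 of 46 mice were higher in cortex. The ranges overlapped in each case.

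**Figure D3:**
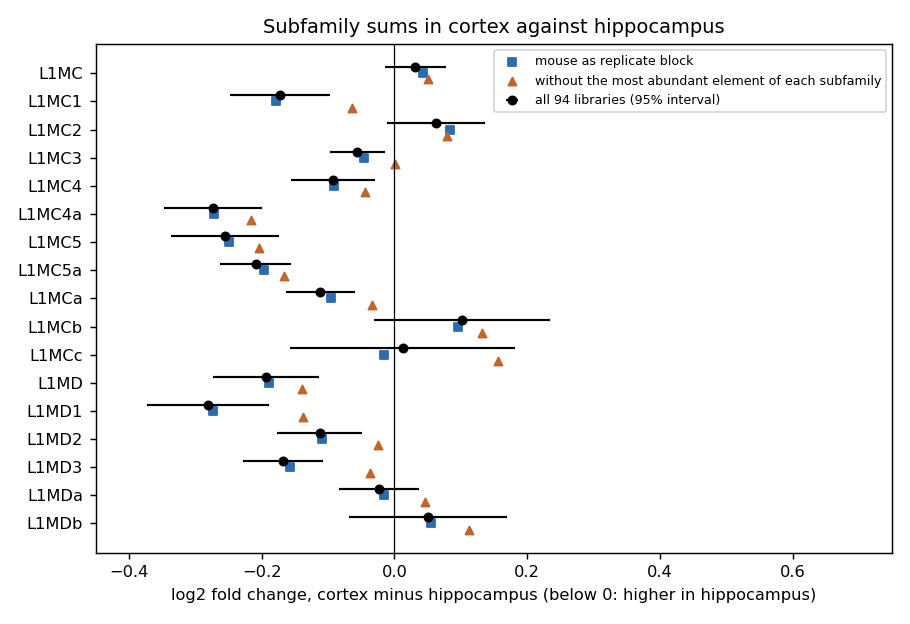
Log2 fold change of each subfamily sum (x axis), cortex minus hippocampus, so that values below 0 are higher in hippocampus. Black circles with 95% intervals use all 94 libraries, blue squares have the mouse as a block, and orange triangles leave out the most abundant element of each subfamily. L1MD1 lies lowest among the black circles at -0.28, and most triangles lie to the right of their circle.

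Of the 506 members tested singly across both tissues, 120 passed, with 38 higher in cortex and 82 higher in hippocampus. This was 7.51% and 16.2% of the members tested, beside 12.2% and 10.4% of all 7551 elements tested, of which 22.7% passed in either direction. With DESeq2 size factors the split was 63 higher in cortex and 59 higher in hippocampus, and over all elements it went to 18.9% and 8.04%. With DESeq2 it was 78 and 73, and over all elements 22.8% and 9.73%. DESeq2 size factors moved the median log2 fold change of all elements from 0.09 to 0.22 and that of the tested members from -0.13 to 0.02. An element could pass the filter through the tissue in which it was high. The 76 members that passed it in cortex alone gave 20 calls, all higher in cortex, and the 44 that passed it in hippocampus alone gave 14 calls, all higher in hippocampus. Among the 280 that passed in each tissue, 15 were higher in cortex and 67 higher in hippocampus. This split by filter was not made over all elements, so these counts have no background and are descriptions. Other old groups of the table were near the members' shares of 7.51% and 16.2%. Among 597 L1MA and L1MB elements 7.37% were higher in cortex and 16.2% higher in hippocampus, and among 397 L1ME elements 6.55% and 18.9%.

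The first of the 5 members named as higher in hippocampus, L1MC5_dup3262, had 12 counts in 5 of 48 cortex libraries, 6 of them in mouse 24, and 595 counts in 45 of 46 hippocampus libraries. Its level, in CPM of the elements tested and scaled jointly over both tissues, ran from 0 to 18.8 CPM in cortex and from 0 to 237 CPM in hippocampus, with medians of 0 and 77.0 CPM. It was higher in hippocampus in 45 of 46 mice, with a fitted log2 fold change of -5.57 ± 0.40. L1MD_dup5841 was similar, with 23 counts in 8 cortex libraries and 276 counts in 38 hippocampus libraries. Its level ran from 0 to 24.5 CPM in cortex and from 0 to 113 CPM in hippocampus, with a fitted log2 fold change of -3.77 ± 0.49 (37 of 46 mice). For both elements the cortex range lay within the hippocampus range. Both passed the filter on low counts within hippocampus but not within cortex, so a difference in this direction was a condition of their being tested, and their fold changes are descriptions.

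L1MC4a_dup1140 and the next 2 elements passed the filter within each tissue. L1MC4a_dup1140 ran from 155 to 895 CPM in cortex (median 570) and from 467 to 2238 CPM in hippocampus (median 1279), and was higher in hippocampus in 44 of 46 mice (2.24-fold, adjusted p = 9.30e-19). L1MC5a_dup1296 had medians of 70.3 and 219 CPM, a 3.04-fold difference seen in 44 of 46 mice (adjusted p = 1.72e-13). L1MC3_dup4852 had medians of 343 and 646 CPM, a 1.87-fold difference seen in 45 of 46 mice (adjusted p = 1.39e-09). In each of these 3 elements the ranges of the tissues overlapped.

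Of the 5 members named as higher in cortex, L1MDa_dup2473 and L1MC1_dup1258 passed the filter within cortex but not within hippocampus, so their differences are descriptions. L1MDa_dup2473 ran from 0 to 152 CPM in cortex (median 67.3) and from 0 to 67.7 CPM in hippocampus (median 12.4), a 4.47-fold difference seen in 38 of 46 mice. L1MC_dup869 had medians of 438 CPM in cortex and 259 CPM in hippocampus (1.75-fold, 41 of 46 mice, adjusted p = 3.20e-07). L1MC_dup1792 had medians of 239 and 126 CPM (1.90-fold, 40 of 46 mice). L1MCa_dup1513 at 294 and 155 CPM and L1MC1_dup1258 at 40.1 and 6.02 CPM completed the 5, with 1.66-fold and 3.55-fold differences in 38 and 34 of 46 mice. These members came from L1MC, L1MCa, L1MDa and L1MC1, so a subfamily higher in hippocampus as a sum could hold elements higher in cortex. Their ranges overlapped too.

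The genotype comparison asked whether trisomy changed these elements. In TS-nt vs. WT-nt, none of the 17 subfamilies passed the test in cortex, where 0.752% of all 133 subfamilies did, and none in hippocampus, where 0.758% of 132 did. At an unadjusted p below 0.05 there were 4 of 17 subfamilies in cortex and 1 in hippocampus, beside 22.6% and 8.33% of all subfamilies. With DESeq2 1 subfamily, L1MD3, passed in cortex and none in hippocampus. In both tissues 13 of the 17 had a higher and 4 a lower estimate in TS-nt, with a median log2 fold change of 0.08 in cortex and 0.05 in hippocampus. Over all subfamilies these medians were -0.003 and 0.012. In cortex without the 8 libraries that stood apart the count was 10 and 7, with a median of 0.05 beside 0.009 over all subfamilies. The 17 sums come from the same libraries, so counts of signs here and below are descriptions.

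L1MD3 had the smallest p of the cortex comparison. Its level ran from 2580 to 4288 CPM in WT-nt (median 3621), 3622 to 4170 in WT-t (3927), 3575 to 4404 in TS-nt (4011) and 2911 to 4182 in TS-t (3817). The 4 ranges overlapped. The log2 fold change of TS-nt vs. WT-nt was 0.18 ± 0.06 with an adjusted p of 0.146. The adjusted p became 0.0965 with DESeq2, 0.0798 without mouse 33 and 0.0679 without mouse 42. Of the 48 libraries left out singly, these were the only 2 that gave a call for L1MD3. Without the 8 libraries that stood apart, the log2 fold change was 0.09 with an adjusted p of 0.383.

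The treatment comparisons asked whether lamivudine changed the level of these elements. No subfamily passed in TS-t vs. TS-nt or WT-t vs. WT-nt in either tissue. Over all subfamilies 0% passed in these comparisons, except TS-t vs. TS-nt in hippocampus with 1.52%. At an unadjusted p below 0.05, TS-t vs. TS-nt gave 2 subfamilies in cortex (3.01% of all subfamilies) and 4 in hippocampus (9.85% of all). WT-t vs. WT-nt gave 2 and 1, beside 13.5% and 5.3% of all. DESeq2 called none of the 17 in these comparisons. In TS-t vs. TS-nt the estimate was lower in treated mice for 15 of 17 subfamilies in cortex (median log2 fold change -0.09) and for 13 of 17 in hippocampus (-0.07). Over all subfamilies these medians were 0.01 and 0.008. The cortex count was 13 of 17 without the 8 libraries that stood apart. TS-t vs. TS-nt and TS-nt vs. WT-nt share the TS-nt mice, so opposite signs in them are not independent. In WT-t vs. WT-nt, 12 of 17 estimates were higher in treated mice in cortex and 9 in hippocampus. Without the 8 cortex libraries it was 8 of 17 in cortex. With all libraries the median was 0.05 in cortex and 0.001 in hippocampus, beside -4.6e-05 and 0.005 over all subfamilies. In the interaction, the difference between the treatment effects of the genotypes, none of the 17 passed in either tissue (0% of all subfamilies), with 4 and 2 at an unadjusted p below 0.05 (20.3% and 8.33% of all subfamilies) and none by DESeq2. Its estimate was negative for 14 of 17 subfamilies in each tissue, and for 12 of 17 in cortex without the 8 libraries. With all libraries its median was -0.14 in cortex and -0.08 in hippocampus, beside -0.007 and 0.0005 over all subfamilies.

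TS-t was also set against WT-nt and against WT-t. Again no subfamily passed in either tissue, where 0% of all subfamilies did. At an unadjusted p below 0.05, TS-t vs. WT-nt gave 2 subfamilies in each tissue (6.02% and 8.33% of all subfamilies), and the comparison with WT-t gave 1 in cortex and 2 in hippocampus (5.26% and 9.09% of all). In cortex, 9 of 17 estimates were lower in TS-t than in WT-nt and 11 of 17 lower than in WT-t, and without the 8 libraries these were 13 and 11. DESeq2 called 1, L1MCa in cortex in TS-t vs. WT-t. L1MCa had the smallest p of any subfamily in these comparisons. It ran from 2919 to 3532 CPM in WT-nt (median 3219), 2890 to 4206 in WT-t (3252), 2996 to 3535 in TS-nt (3188) and 2644 to 3405 in TS-t (2980). TS-t had the lowest median, and all ranges overlapped. The log2 fold change of TS-t vs. WT-t was -0.15 ± 0.04 (95% interval -0.24 to -0.07) with an adjusted p of 0.102, just above the threshold.

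Small changes of scale or sample moved L1MCa across the threshold. Its adjusted p was 0.0308 with DESeq2 and 0.0772 with DESeq2 size factors, and 13 of 48 single libraries, when left out, gave an adjusted p between 0.0282 and 0.0949. Without the 8 libraries that stood apart, the log2 fold change was -0.11 with an adjusted p of 0.430.

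In hippocampus, L1MDa had the smallest p. It ran from 2147 to 3095 CPM in WT-nt (median 2900), 2355 to 3108 in WT-t (2695), 2398 to 2954 in TS-nt (2723) and 2230 to 2779 in TS-t (2573). The ranges overlapped, and mouse 24 (WT-nt), at 2147 CPM, was the lowest library of all. TS-t vs. WT-nt gave a log2 fold change of -0.16 ± 0.06 with an adjusted p of 0.163. Without mouse 24 it was -0.23 with an adjusted p of 0.00588. Of the 46 libraries left out singly, this was the only 1 that gave a call for L1MDa.

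**Figure D4:**
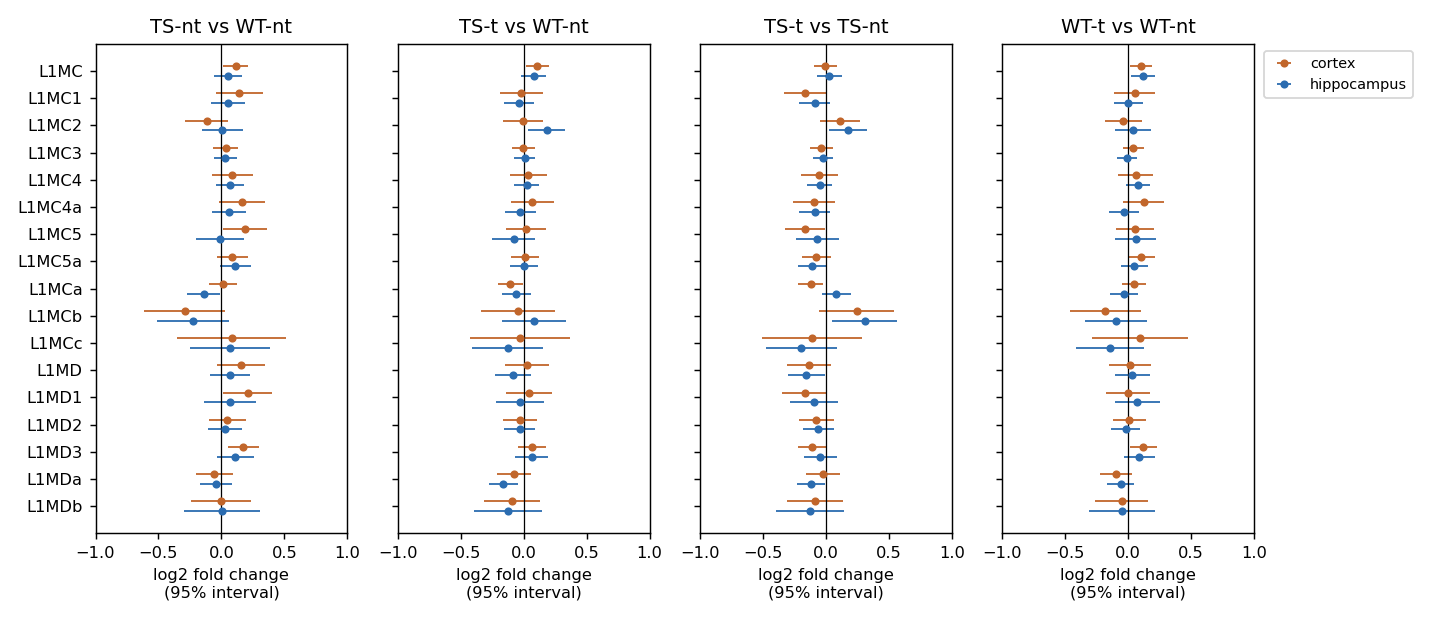
Log2 fold change with 95% interval (x axis) of the 17 subfamily sums in 4 comparisons of groups, for cortex (orange) and hippocampus (blue). No subfamily passed the test in any panel, and L1MCb, among the rarest, shows wide intervals (from -0.61 to 0.03 in cortex, TS-nt vs. WT-nt).

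Across the 5 comparisons of groups in both tissues, the ranges of the compared groups overlapped in all 170 pairs of subfamily and comparison. The coefficient of variation of a subfamily within a group ranged from 3.77% to 63.4% in cortex (median 11.4%) and from 3.97% to 24.8% in hippocampus (median 10.1%). Counting error alone would give 1.61% to 8.95% in cortex and 1.77% to 10.2% in hippocampus.

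Single elements gave the same picture in the groups. In cortex, none of the 363 tested members passed in any of the 6 comparisons, where 0% of all 5416 elements did. At an unadjusted p below 0.05 there were 6 members in TS-nt vs. WT-nt (1.65%, beside 1.51% of all elements), 3 in TS-t vs. WT-nt (0.826%, beside 1.75%) and 3 in TS-t vs. TS-nt (0.826%, beside 0.905%). There were 4 (1.10%) in WT-t vs. WT-nt, beside 1.59% of all elements, 4 where TS-t was compared with WT-t, beside 1.96%, and 4 in the interaction, beside 1.11%. In hippocampus none of the 324 tested members passed either, where 0.0708% of all 4238 elements passed for TS-nt vs. WT-nt, 0.0472% when TS-t was compared with WT-nt and 0% otherwise. At an unadjusted p below 0.05 there were 12 members in TS-nt vs. WT-nt (3.70%, beside 4.03% of all elements), 11 where TS-t was compared with WT-nt (3.395%, beside 4.25%) and 9 in the interaction (2.78%, beside 3.11%). There were 10 members (3.09%) in TS-t vs. TS-nt, beside 3.26% of all elements. The effect of treatment in WT mice also gave 10, beside 3.16%, and treated TS against treated WT mice gave 10, beside 3.94%. DESeq2 called no member in cortex and 1 in hippocampus, L1MC5_dup3240, where TS-t was compared with WT-nt.

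This count rests on the filter. When a total of 10 counts over a tissue was enough to be tested, edgeR called 982 to 2619 members per comparison. DESeq2 with its default settings, given the same elements, called 0 members in each of the 12. An element to which DESeq2 gave no adjusted p counted as not called. For TS-nt vs. WT-nt in cortex, edgeR then called 15.6% of 14081 members and 20.8% of all elements. The 2198 members called there had a median of 20 counts, found in a median of 4 of 48 libraries. The cause of the difference between the tools was not tested.

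L1MC5_dup3240 is 1 of 3 members that the study listed as changed L1 elements, so its selection used these libraries and its values are no independent evidence. With CPM now scaled within a tissue, it ran in hippocampus from 100 to 374 CPM in WT-nt (median 228), 69.4 to 362 in WT-t (120), 13.7 to 276 in TS-nt (81.4) and 29.3 to 179 in TS-t (81.3). WT-nt had the highest median and the ranges overlapped. The log2 fold change was -1.18 ± 0.33 in TS-t vs. WT-nt (adjusted p = 0.324), -1.15 ± 0.38 in TS-nt vs. WT-nt (adjusted p = 0.884) and -0.69 ± 0.31 in WT-t vs. WT-nt. In cortex the element was scarcer, from 0 to 148 CPM with a median of 32.9. Across the tissues it was higher in hippocampus in 44 of 46 mice (log2 fold change -1.77 ± 0.25).

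The other 2 listed members, from the cortex list, did not pass the filter on low counts and were not tested. L1MC4_dup3963 is a fragment of 60 bases at chr12:8286540-8286599 (GRCm38/mm10, plus strand), outside annotated genes and 781 bases past the end of Ldah, a lipid droplet hydrolase gene. It had 2 counts in 2 of 9 WT-nt cortex libraries, 24 in 6 of 17 WT-t, 26 in 7 of 9 TS-nt and 54 in 10 of 13 TS-t. Median levels were 0 CPM in WT-nt and WT-t, 16.97 CPM in TS-nt and 20.8 CPM in TS-t, and each group held libraries at 0. In hippocampus it had 14, 19, 17 and 6 counts in 4 of 8, 5 of 17, 7 of 8 and 3 of 13 libraries.

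L1MD3_dup2285 is a fragment of 119 bases at chr17:51857112-51857230 (GRCm38/mm10, plus strand), outside annotated genes and 1937 bases from the model Gm37176. In cortex it had 14 counts in 5 of 9 WT-nt libraries, 38 in 10 of 17 WT-t, 22 in 6 of 9 TS-nt and 122 in 12 of 13 TS-t. Median levels were 5.49, 10.6, 6.15 and 61.3 CPM, highest in TS-t, and the ranges overlapped. Without the 8 libraries that stood apart, 10 of 11 TS-t libraries held a count and the median was again 61.3 CPM. In hippocampus the counts were 7, 30, 14 and 46 in 3 of 8, 10 of 17, 4 of 8 and 9 of 13 libraries.

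For the remaining comparisons, the member with the smallest p in cortex had a median below 100 CPM in each group. L1MC1_dup3646 had medians of 86.6 CPM in WT-nt (0 to 183) and 27.2 CPM in TS-nt (11.3 to 73.4), with a log2 fold change of -1.33 ± 0.60. L1MC1_dup5014 had medians of 34.2 CPM in WT-nt (0 to 61.1) and 97.6 CPM in TS-t (10.2 to 280), with a log2 fold change of 1.66 ± 0.59. Both pairs of ranges overlapped. L1MC2_dup979 had medians of 35.1 CPM in TS-nt and 10.6 CPM in TS-t, L1MC3_dup5212 had 22.1 CPM in WT-nt and 41.03 CPM in WT-t, and L1MC1_dup978 had 81.5 CPM in WT-t and 31.2 CPM in TS-t. L1MC2_dup1077 led the interaction, with a log2 value of 2.31 ± 0.91. None of these passed the test.

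In hippocampus, L1MD2_dup2032 ran from 20.6 to 180 CPM in WT-nt (median 86.5) and from 104 to 382 CPM in WT-t (median 184), with a log2 fold change of 1.04 ± 0.30. L1MC1_dup5036 had medians of 6.94 CPM in WT-t and 68.6 CPM in TS-t (log2 fold change 1.86 ± 0.57, adjusted p = 0.494). In cortex the same element had medians of 50.9 and 86.5 CPM in these groups. L1MC5a_dup2063 had medians of 201 CPM in TS-nt and 187 CPM in TS-t (log2 fold change -0.72 ± 0.28). L1MC4a_dup1200 led the interaction with 0.77 ± 0.25, its medians being 555 CPM in WT-nt, 384 in WT-t, 401 in TS-nt and 489 in TS-t. None of them passed the test.

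The 5 most abundant members were the same elements in both tissues. Together they held a median of 0.791% of L1 counts in cortex (0.102% to 1.10%) and 0.965% in hippocampus (0.450% to 1.58%). L1MC1_dup1842 led with group medians in cortex of 6624 CPM in WT-nt, 6319 in WT-t, 7130 in TS-nt and 5983 in TS-t, over a range of 1210 to 8611. In hippocampus its medians were 7452, 7496, 7818 and 7292 CPM, over a range of 4408 to 9961. The groups overlapped in each tissue. Between the tissues it was 1.19-fold higher in hippocampus (38 of 46 mice, adjusted p = 0.0457), a call that was lost with DESeq2 size factors.

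L1MC5_dup3054 had hippocampus medians of 3198 CPM in WT-nt, 2950 in WT-t, 2416 in TS-nt and 2205 in TS-t. Its lowest library, at 337 CPM, was in TS-t, and the groups overlapped. The log2 fold changes were -0.43 ± 0.21 in TS-nt vs. WT-nt and -0.43 ± 0.19 in TS-t vs. WT-nt, neither past the test (adjusted p = 0.998 in the latter). Its cortex medians were 2353, 1906, 2420 and 1812 CPM in the same order of groups. L1MD1_dup44, L1MC5_dup369 and L1MC4_dup5006 had group medians of 1600 to 2291 CPM in cortex and 2014 to 2774 CPM in hippocampus. Against cortex, L1MD1_dup44 was higher in hippocampus by 1.37-fold (adjusted p = 0.000282), L1MC5_dup369 by 1.28-fold (0.00655) and L1MC5_dup3054 by 1.27-fold (0.0165). L1MC4_dup5006 had an adjusted p of 0.105 and passed with the mouse as a block.

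**Figure D5:**
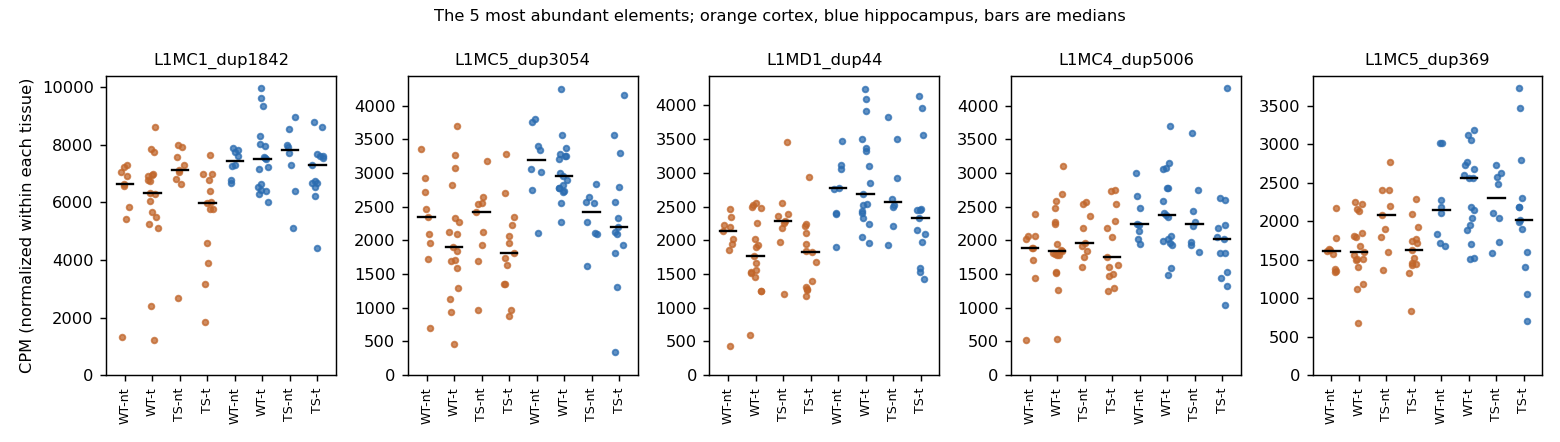
Level of the 5 most abundant members (y axis, CPM scaled within each tissue) in each library of the 4 groups, with cortex in orange and hippocampus in blue. Bars are group medians, and the groups of each tissue overlap for all 5 elements.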

How the data were processed

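Total RNA of cortex and hippocampus was sequenced after ribosomal RNA removal (TruSeq stranded kit). The authors used Trimmomatic 0.38 for trimming and HISAT2 2.1.0 for alignment on the GRCm38/mm10 build, reporting several alignments per read, and assigned multiply aligned reads to L1 elements with Telescope (version not given in the sources used here). The deposited values are raw counts per element and library, and near-identical copies can share reads, so single-element counts are uncertain. The study's methods mention pooling of samples, and whether the libraries are pools is not clear.

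Counts were analysed with edgeR 4.0.16 (limma 3.58.1, R 4.3.3): filterByExpr by group (minimum count 10, minimum total 15), TMM scaling, robust quasi-likelihood fits with 4 groups per tissue and 6 comparisons, and Benjamini-Hochberg adjustment over all features tested, called at adjusted p below 0.1. The tests were two-sided. Subfamily sums were tested over all subfamilies in the same way, without the 3 elements left out. Element CPM divide a count by the library's total over the elements tested and are scaled within a tissue for group levels and jointly for tissue levels. Ranges of shares and levels run over libraries, so they hold variation between libraries as well as counting error. Cortex against hippocampus compared the mean of 4 cortex groups with the mean of 4 hippocampus groups over 94 libraries. The 46 mice with both tissues pair these libraries. Deviations of the libraries of a mouse from their group means had correlations of -0.0583 to 0.466 (median 0.0828, 280 elements), and the mouse block was fitted as an alternative. DESeq2 1.42.0 was the alternative test. Scripts were tested on simulated data.

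Named elements were the 5 most abundant members of each tissue, the 3 members in the study's lists, the members called or else the member with the smallest p in each comparison, and the 5 called with the smallest p in each direction between tissues. The members and lists were chosen with earlier results of these data known. The comparisons share control groups. Labels of non-treated mice begin with 20 throughout and those of treated mice with 18, 19 or 20, so a fit was repeated with treated mice of label 20 only. Of the libraries, 0 pairs held identical values. Of the authors' own comparison tables, the names and positions of the listed elements were used, and no fold changes or p-values.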

Additional observations from a re-analysis of the deposited data

Results flagged for a closer look

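Of 72 groups with 8 or 9 libraries tested for a library far from the rest of its group, 10 held one (13.9%). Chance gives about 1 in 20 for independent groups. The 72 reuse the same non-treated libraries for each subfamily and for the total share, so the rates cannot be compared. In 9 of the 10 the library was cortex mouse 24 (WT-nt), which had the most L1 counts and stood apart on the first principal component. Its L1MC and L1MD share of L1 counts was 3.55%, beside a group median of 7.64%. Its level was 4449 CPM for L1MC (group median 5179), 5651 for L1MC1 (10655), 5107 for L1MC4 (8078), 2765 for L1MC4a (5050), 4526 for L1MC5 (6805), 4398 for L1MD (6587), 1849 for L1MD1 (3606) and 3132 for L1MD2 (4841). The other was cortex mouse 23 (TS-nt), at 8778 CPM for L1MD against a group median of 7077 CPM.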

How the results depend on the processing

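Of the counts of calls under the alternatives, 221 of 266 stayed within 1.5 times the reported count. The main fit called 0 members in every comparison of groups, and 0 against 0 counted as staying. An alternative that could not add a call there, such as adjusted p below 0.05, was bound to stay. Of the fold changes of single subfamilies and named elements, 2682 of 2759 kept their side of the threshold. An estimate uncalled in both fits counted as kept, here and when single libraries were left out. For the comparisons of groups these rates therefore say little about stability. With each library left out in turn, which was done for subfamily sums within a tissue only, 9572 of 9588 fold changes kept their side. None of these changed sign where the reported or the alternative fit made a call. Changes of sign in uncalled estimates were not counted and did occur. In cortex, L1MC4 in TS-nt vs. WT-nt went from 0.09 to -0.02 without the 8 libraries that stood apart. The 4 alternatives with the most abundant elements left out, only scarce elements, the element table's scaling between tissues, and DESeq2 on elements with at least 10 counts were chosen after seeing the data. Leaving out each library in turn gave 0 to 1 called subfamilies in cortex (TS-nt against WT-nt, and TS-t against WT-t) and hippocampus (TS-t against WT-nt), and 0 in the other comparisons of groups.

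The filter on low counts moved the counts of called elements most. In the order TS-nt against WT-nt, TS-t against TS-nt, TS-t against WT-nt, TS-t against WT-t, WT-t against WT-nt and interaction, a minimum of 10 counts in total gave 2198, 982, 2619, 1701, 2522 and 1237 members in cortex and 1654, 1416, 1495, 1099, 1424 and 1308 in hippocampus. No filter gave 2801, 845, 3690, 2981, 3249 and 1023 in cortex and 0, 1494, 1573, 2088, 1164 and 1061 in hippocampus. With the minimum of 10 counts these were 6.97% to 18.6% of the members tested in cortex, beside 6.86% to 25.0% of all elements, and 10.3% to 15.5% in hippocampus, beside 10.6% to 14.5%. With no filter they were 3.35% to 14.6% in cortex, beside 2.98% to 18.4%, and 0% to 9.74% in hippocampus, beside 0% to 9.27%. DESeq2 with its default settings called 0 members in each comparison at the minimum of 10 counts. The cause was not tested.

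DESeq2 called 1 subfamily in cortex in TS-nt vs. WT-nt (L1MD3) and 1 in TS-t vs. WT-t (L1MCa), and 1 element in hippocampus in TS-t vs. WT-nt. DESeq2 size factors called 1 subfamily, L1MCa, in TS-t vs. WT-t. With the 3 elements left out by name added back, hippocampus gave 1 subfamily in TS-nt vs. WT-nt (L1MC4, log2 fold change 0.22, adjusted p = 0.0604) and 2 in TS-t vs. WT-nt (L1MC4 at 0.23, adjusted p = 0.0167, and L1MDa at -0.18, adjusted p = 0.0939). The cause of these changes was not tested. Limiting treated mice to label 20 kept 3 of 17 WT-t and 8 of 13 TS-t mice and gave 0 called members in every comparison of groups. The main fit also called 0 there, so this repeat does not separate label from treatment.

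Between the tissues, member elements higher in cortex, 38 as reported, numbered 78 with DESeq2 and 63 with its size factors. They numbered 3 in WT-nt mice alone and 25 at adjusted p below 0.05. Of all elements tested, 12.2% were higher in cortex as reported, and 22.8%, 18.9%, 2.93% and 9.28% in the same order of alternatives. In WT-nt mice alone, 5 of 184 members tested were higher in hippocampus, against 82 as reported. Over all elements this share was 2.59% of 2318, against 10.4% as reported. Fewer libraries were tested in WT-nt mice alone. Subfamilies higher in cortex, 0 as reported, numbered 2 with the mouse as a replicate block, 3 with DESeq2 and 3 with its size factors. They numbered 2 without the 8 libraries that stood apart and 5 with the scaling of the element table. Without the most abundant elements there were 3, and with scarce elements alone 13. Over all subfamilies, 42 were higher in cortex as reported, and 47, 53, 54, 46, 68, 47 and 46 in the same order of alternatives. Subfamilies higher in hippocampus, 11 as reported, numbered 3 in WT-nt mice alone and 3 with the scaling of the element table. They numbered 6 without the most abundant elements and 0 with scarce elements alone. Over all subfamilies, 46 were higher in hippocampus as reported, and 8, 18, 41 and 39 in the same order of alternatives. Without the most abundant elements and with scarce elements alone, only the 17 subfamilies lost elements, so those counts are not a like comparison. The mouse block changed no other call among subfamilies than those of L1MC and L1MC2. Among the 499 members tested with the block, it gave 35 higher in cortex and 85 higher in hippocampus, beside 12.3% and 10.8% of all 7388 elements.

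The direction turned for subfamilies between the tissues. With scarce elements alone, log2 fold changes, cortex minus hippocampus, were 0.17 for L1MC1, 0.0916 for L1MC3, 0.0895 for L1MC4, 0.13 for L1MC4a, 0.0734 for L1MC5, 0.0749 for L1MC5a, 0.15 for L1MCa, 0.13 for L1MD, 0.16 for L1MD1, 0.16 for L1MD2, 0.11 for L1MD3 and 0.16 for L1MDa. With the scaling of the element table they were 0.0786 for L1MC3, 0.0454 for L1MC4, 0.0245 for L1MCa, 0.0261 for L1MD2 and 0.12 for L1MDa, and without the most abundant element L1MC3 was at 0.000703. The cause was not tested. No hippocampus library stood apart, so that alternative gave no value there. Most members held too few counts for a test of their own, so a change in them was not detectable at this depth.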
